A study of Oncorhynchus mykiss with 43 samples.

Results

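Fast muscle of trout refed for 36 days was compared with that of trout refed for 7 or 11 days. The comparison covers 26 of the 43 arrays of the series, 9 fish at 36 days against 17 fish that were taken as a single group, with 9 at 7 days and 8 at 11 days. All were rainbow trout (Oncorhynchus mykiss), yearlings of a spring strain that had been deprived of food for a month and then fed above the normal ration, and muscle was taken just beneath the dorsal fin. No transgene or mutant line was involved, all fish were anaesthetized with phenoxy-ethanol before sampling, and every array held the RNA of 1 fish. The remaining 17 arrays hold 9 fish at 4 days and 8 fasted fish, and are used below only as levels beside the comparison. Fish at 36 days were sampled once, at the end of the course, in cooler water, so that time post-refeeding, water temperature and season cannot be told apart.

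Refeeding after a fast sets off recovery growth, in which muscle fibres rebuild protein faster than usual. Such growth needs messenger RNA to be made, spliced and exported, ribosomes to be assembled, initiation factors that bring ribosomes onto messengers, and chaperones that fold the new chains. Growing fibres also draw on contractile and cytoskeletal proteins and on the reticulum and Golgi apparatus, where membrane and secreted proteins are modified. The comparison of 36 days with 7 and 11 days asks which transcripts of the early phase are lower late in recovery growth, and which are higher.

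More clones were lower than higher at 36 days, and the named ones called lower belonged to translation initiation, RNA processing, protein folding and the COP9 signalosome. Of 9023 clones on the array, 4197 had a value in at least 1 of the 26 fish and 1683 had enough values to be tested. At an adjusted p under 0.0001 from limma, 25 clones (1.49%) were lower at 36 days and 1 (0.0594%) was higher. At an adjusted p under 0.05, 330 (19.6%) were lower and 186 (11.1%) higher. This balance depended on the scaling, with 663 lower and 58 higher after quantile normalization and 297 lower and 233 higher after a second centring of the arrays on clones measured in all 26 fish. At the stricter threshold the second centring gave 19 lower and 6 higher. The 25 clones called lower had a median log2 difference of -0.67, with a range of -0.94 to -0.42, and every measured fish at 36 days lay below the mean of 7 and 11 days for each of them. They were somewhat dim, with a median intensity at 7 and 11 days of 2.56, against 2.95 for all clones tested. For 11 of the 25 the values at 36 days did not overlap those at 7 and 11 days, while among all clones tested this held for 12 in that direction (0.713%). Over all clones tested the median log2 difference was -0.07, and 1039 of the 1683 had negative and 644 positive differences.

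**Figure D1:**
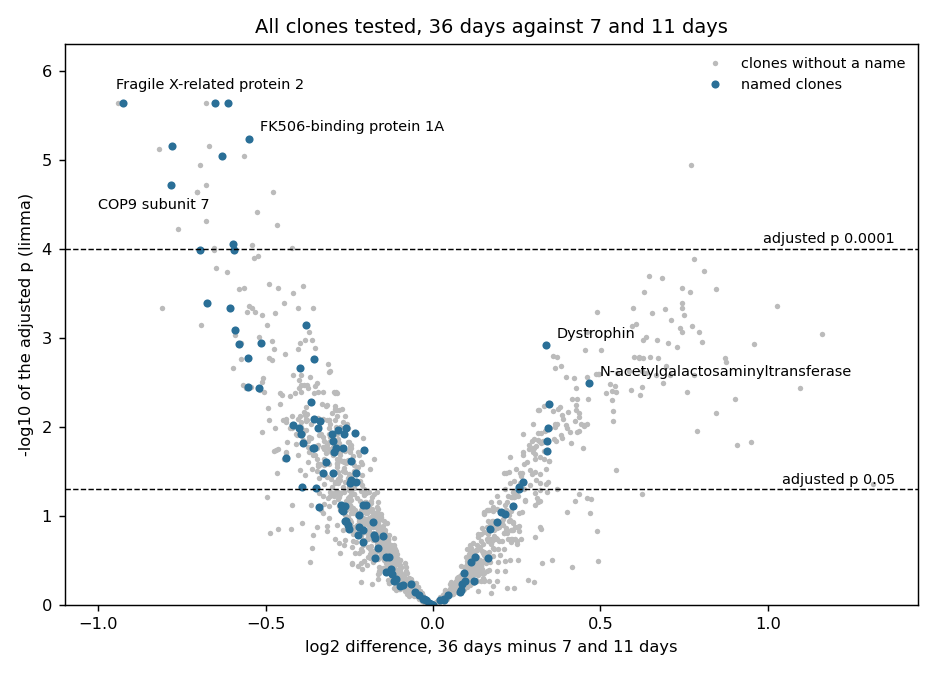
Log2 difference, 36 days minus 7 and 11 days (horizontal), against -log10 of the adjusted p from limma (vertical) for the 1683 clones tested, with named clones in blue and dashed lines at the thresholds of 0.0001 and 0.05. Above the upper line lie 25 clones on the lower side and 1 on the higher side, whereas the largest rises, up to a log2 difference of 1.31, stay below it.

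The arrays differed in how many clones carried a value, and this moved with the groups. The number was 1441 to 2268 at 36 days (median 2133) and 1871 to 2616 at 7 and 11 days (median 2183), and fish 2 and 5 of 36 days and fish 8 of 7 days had the fewest. The median of the values left on an array was 2.12 to 3.63 at 36 days and 2.05 to 2.69 at 7 and 11 days. When these 3 arrays were left out, limma called 11 clones lower and 0 higher. At an adjusted p under 0.05, 247 were lower, and higher clones made up 35.7% of those that passed. All 11 were among the 26 called with every array. Without fish 5 of 36 days alone 13 were called lower. The count called higher was 12 without fish 4 of 7 days and 8 without fish 6 of 36 days. All 26 called clones kept their direction and an adjusted p under 0.05 without those arrays. With the number of values of each array as a covariate, 12 clones were called lower and 0 higher, 12 of the 26 stayed called, and all 26 kept their direction and an adjusted p under 0.05.

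Markers of the labelled tissue and of other cell types were looked up. None of the 9 clones of skeletal muscle markers was empty on all 26 arrays, and 6 of them could be tested. Members such as nebulin and dystrophin are not particular to fast fibres. Their summed intensities per array were 43.4 to 76.5 at 36 days and 47.3 to 72.3 at 7 and 11 days. In these sums a missing clone counts as 0, so they also move with which clones had a value. Skeletal alpha actin, with medians of 17.9 and 18.3, had a value in only 4 fish at 36 days and 3 earlier fish. No array gave a value for the myeloid transcription factor PU.1 or for the liver cytochrome P450 2K1. An empty row does not show that a transcript was absent, as 4826 of 9023 clones had no value on any of the 26 arrays. The study itself names PU.1 among the regulators raised in recovering muscle. The liver apolipoprotein B-100 was measured in 4 of 9 fish at 36 days (median 0.719) and in 6 of the 17 earlier fish (median 0.677). The summed slow and cardiac type markers ranged from 10.5 to 34.9 at 36 days and from 9.61 to 35.2 at 7 and 11 days. Among them cardiac alpha actin, with medians of 18.2 and 15, had a value in only 3 fish at 36 days and 2 earlier fish. The sums of the 3 clones of smooth muscle and non-muscle myosins ranged from 19.5 to 26.7 at 36 days and from 16 to 25.3 at 7 and 11 days. Within this last list myosin-10 was higher at 36 days, as given below, and its source was not tested. In bulk muscle, fewer cells of a type and less RNA per cell cannot be told apart.

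Translation initiation factors supplied 3 of the 8 named clones called lower. Initiation factor 5, which triggers GTP hydrolysis by initiation factor 2 once the start codon is found, had intensities of 1.41, 1.55 and 2.07 at 36 days (lowest, median and highest of 8 fish), against 2.06, 2.48 and 3.07 in 17 fish at 7 and 11 days. Of the 8 fish at 36 days 7 lay below all 17 others, and only fish 10 reached into their range. The log2 difference was -0.65 (standard error 0.08, adjusted p = 2.33e-06 from limma). Initiation factor 3 is a large complex that binds the small subunit and recruits the messenger. Its subunit 4 measured 1.15, 1.68 and 2.07 in 9 fish at 36 days and 1.90, 2.56 and 3.22 in the 17 earlier fish. All 9 fish at 36 days were below the earlier mean, and the log2 difference was -0.63 (standard error 0.09, adjusted p = 9.05e-06 from limma). Its subunit 12 measured 1.33, 1.40 and 1.56 in the 5 fish at 36 days with a value, against 1.76, 2.11 and 2.53 in 16 fish at 7 and 11 days, without overlap. That call was close to the threshold (log2 difference -0.60, adjusted p = 8.87e-05 from limma) and was lost when any of 19 single fish was left out, with adjusted p up to 0.000532.

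Further initiation factors were lower without reaching the stricter threshold, and a second clone of initiation factor 5 was seldom measured at 36 days. Initiation factor 2 subunit 1, the subunit whose phosphorylation slows translation, had intensities of 1.29 to 1.79 (median 1.47, 7 fish) at 36 days and 1.49 to 3.00 (median 2.33, 17 fish) at 7 and 11 days. Its log2 difference was -0.61 (standard error 0.12, adjusted p = 4.63e-04 from limma), and all 7 fish at 36 days were below the earlier mean. Initiation factor 4 gamma 1 had a log2 difference of -0.38 (adjusted p = 7.26e-04 from limma). Initiation factor 1A, at -0.13 (adjusted p = 0.288 from limma), did not pass 0.05. The other clone of initiation factor 5 gave a value in 1 of 9 fish at 36 days, of 2.59, but in 16 of 17 fish at 7 and 11 days, where it ranged from 2.91 to 4.13 (two-sided p = 4.93e-05 by Fisher's exact test, or 0.0247 when adjusted). With the 3 sparsest arrays left out it had a value in 1 of 7 and 15 of 16 fish, and 0 clones passed an adjusted p under 0.05 in that test. Over the translation list, which holds initiation and elongation factors and aminoacyl-tRNA synthetases, 12 of 25 clones could be tested. All 12 had negative differences, 3 were called at 0.0001 and 8 at 0.05, none higher, and the median log2 difference was -0.38, against -0.07 over all clones. Negative differences were found for 1039 of all 1683 clones tested, and 1.49% were lower at 0.0001 and 19.6% at 0.05. The study drew its named clones because they changed between these same fish, so counts over any of the lists here are not independent evidence of a direction.

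**Figure D2:**
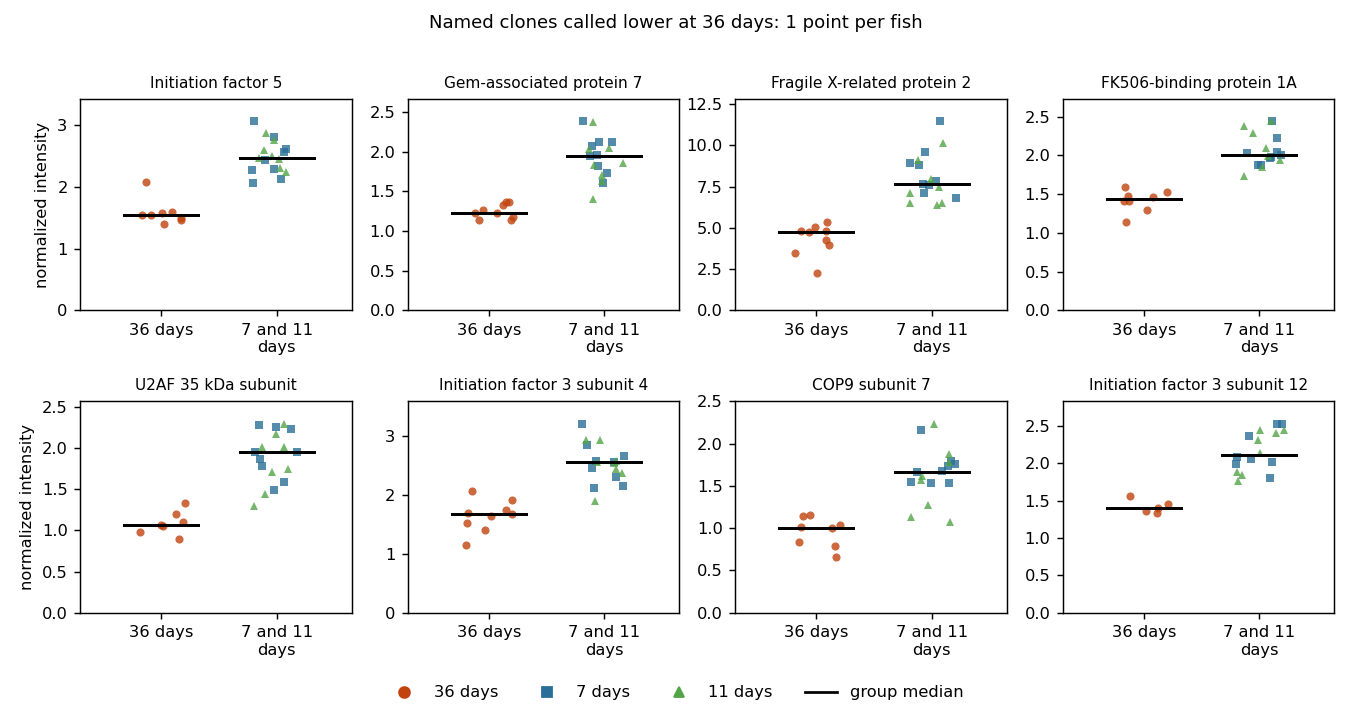
Normalized intensity (vertical, starting at 0) of the 8 named clones called lower, 1 point per fish with a value, at 36 days (circles, left) and at 7 days (squares) and 11 days (triangles) together (right), with the median of each group as a line. The 9 fish at 36 days lie between 1.13 and 1.37 for gem-associated protein 7, all below the 17 others, and fish 3 of 36 days has the lowest value for fragile X-related protein 2.

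Factors that act on RNA gave the other large group of named calls. Fragile X-related protein 2, which binds messengers and regulates their translation, had the largest fall of any named clone. Its intensities were 2.26, 4.76 and 5.33 in 9 fish at 36 days, against 6.37, 7.65 and 11.5 in the 17 earlier fish. The groups did not overlap, and the log2 difference was -0.93 (standard error 0.12, adjusted p = 2.33e-06 from limma), a level 1.90-fold higher at 7 and 11 days. Gem-associated protein 7, part of the complex that loads the Sm ring onto small nuclear RNAs, was again fully separated, with 1.13, 1.23 and 1.37 in 9 fish at 36 days and 1.41, 1.95 and 2.38 in 17 fish at 7 and 11 days. Its log2 difference was -0.61 (standard error 0.08, adjusted p = 2.33e-06 from limma).

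The splicing factor U2AF 35 kDa subunit, which recognises the AG at the end of introns, measured 0.901, 1.07 and 1.34 in 7 fish at 36 days and 1.30, 1.95 and 2.30 in 17 fish at 7 and 11 days. Its highest fish at 36 days overlapped a single earlier fish, and the log2 difference was -0.78 (standard error 0.10, adjusted p = 6.93e-06 from limma). The arginine/serine-rich splicing factor 2, which binds exonic enhancers, was lower at the looser threshold. It measured 1.20 to 1.64 (median 1.46) in 5 fish at 36 days and 1.48 to 3.22 (median 2.33) in 16 fish at 7 and 11 days, a log2 difference of -0.68 (adjusted p = 4.03e-04 from limma). Of 43 clones for RNA synthesis and processing 13 were tested, and all 13 had negative differences. At 0.0001 3 of them were called lower and at 0.05 11, none higher, with a median log2 difference of -0.30. The shares over all clones tested were 1.49% and 19.6% lower, and 1039 of 1683 had negative differences. Among those 11 were 2 small nuclear ribonucleoproteins, Sm D2 (log2 difference -0.30) and E (-0.30), and the export factor THO complex subunit 4 (-0.23).

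Of 15 chaperones and folding enzymes tested, 7 were lower at an adjusted p under 0.05 and 1 of them at 0.0001. FK506-binding protein 1A, a prolyl isomerase that also binds the calcium release channel of muscle, had intensities of 1.14, 1.43 and 1.60 in 8 fish at 36 days, against 1.73, 2.01 and 2.44 in 17 fish at 7 and 11 days. No fish at 36 days reached the lowest earlier fish, and the log2 difference was -0.55 (standard error 0.07, adjusted p = 5.8e-06 from limma). The cytosolic chaperonin TCP1 folds actin and tubulin. Its theta subunit measured 2.63, 4.84 and 5.77 in 8 fish at 36 days and 3.89, 6.60 and 8.46 in 17 fish at 7 and 11 days (log2 difference -0.58, adjusted p = 0.00119 from limma), with overlapping groups. A second clone of the same subunit had a log2 difference of -0.21 (adjusted p = 0.0748), and the beta, zeta and gamma subunits had -0.35, -0.25 and -0.23 (adjusted p = 0.0173, 0.0243 and 0.0416). The epsilon subunit, at -0.26 (adjusted p = 0.0777), and the alpha subunit, at -0.14 (adjusted p = 0.288), did not pass 0.05. The list holds 24 clones, and of the 15 tested 13 had negative differences and none was higher at 0.05, with a median log2 difference of -0.26. Among all 1683 clones tested 1039 had negative differences, and 19.6% were lower at 0.05 and 1.49% at 0.0001. HSP 90-alpha, a chaperone of signalling proteins and of myosin, had a log2 difference of 0.08 (adjusted p = 0.682), or -0.11 (adjusted p = 0.574) after quantile normalization, with median intensities of 17.8 at 36 days and 17.2 at 7 and 11 days.

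In the machinery of protein breakdown a single clone was called. COP9 signalosome complex subunit 7, a component of the enzyme that strips NEDD8 from cullin ubiquitin ligases, measured 0.655, 1.01 and 1.16 in 8 fish at 36 days and 1.08, 1.67 and 2.24 in 17 fish at 7 and 11 days. Of the 8 fish at 36 days 6 lay below all earlier fish. The log2 difference was -0.78 (standard error 0.12, adjusted p = 1.93e-05 from limma), and it was -0.65 (adjusted p = 0.000772) with the 3 sparsest arrays left out and -0.71 (adjusted p = 0.000101) without fish 5 of 36 days. Of 43 clones for proteolysis 18 were tested, 15 with negative differences, 1 called lower at 0.0001 and 8 at 0.05, none higher. Their median log2 difference was -0.22. All clones tested had 1039 of 1683 with negative differences, 1.49% lower at 0.0001 and 19.6% at 0.05. The proteasome members at 0.05 were subunit alpha type 5 (log2 difference -0.28), non-ATPase subunit 12 (-0.30), the maturation factor ump1 (-0.35) and both clones of regulatory subunit 4 (-0.25 and -0.35). Ubiquitin itself had a log2 difference of -0.03 (adjusted p = 0.857), with medians of 10.7 at 36 days and 10.6 at 7 and 11 days.

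Cyclin D2 and a mitochondrial NADH dehydrogenase subunit lay just outside the stricter threshold. Cyclin D2, which drives entry into the cell cycle, measured 5.27, 5.93 and 8.22 in 9 fish at 36 days and 6.81, 9.03 and 13 in 17 fish at 7 and 11 days. The log2 difference was -0.60 (standard error 0.10, adjusted p = 1.03e-04 from limma), and 8 of 9 fish at 36 days lay below every earlier fish, fish 10 being the exception. Histone H5A, a linker histone, measured 1.28 to 1.97 (median 1.82) in 7 fish at 36 days and 1.70 to 3.88 (median 2.49) in 17 fish at 7 and 11 days (log2 difference -0.59, adjusted p = 8.11e-04 from limma). Of 20 clones for cell division and chromatin 7 were tested. All had negative differences, with a median of -0.29, and 4 were lower at 0.05. For all clones tested, 1039 of 1683 differences were negative and 19.6% were lower at 0.05.

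Chain 1 of NADH-ubiquinone oxidoreductase, a subunit of respiratory complex I encoded by the mitochondrial genome, had intensities of 1.62, 3.15 and 3.98 in 9 fish at 36 days, against 3.79, 4.76 and 6.85 in 17 fish at 7 and 11 days. Of the 9 fish at 36 days 7 lay below all earlier fish, and the log2 difference was -0.70 (standard error 0.12, adjusted p = 1.03e-04 from limma). Chain 2 of the same complex measured 2.87, 4.83 and 6.59 in 9 fish at 36 days and 4.76, 7.02 and 10.6 in 17 fish at 7 and 11 days, with wide overlap (log2 difference -0.55, adjusted p = 0.00357). The other mitochondrially encoded subunits tested, chain 4 of complex I and subunit 3 of cytochrome c oxidase, had log2 differences of -0.39 and -0.37 (adjusted p = 0.0120 and 0.00523). The 3 tested ATP synthase chains are encoded in the nucleus. The alpha chain had a log2 difference of -0.27, the beta chain -0.22 and -0.21 in its 2 clones and the gamma chain -0.01, with adjusted p of 0.0748 to 0.980. Other proteins encoded in the nucleus did pass 0.05. Voltage-dependent anion channel 2 had -0.40, cytochrome c -0.39 and aldehyde dehydrogenase 7 member A1 -0.26 (adjusted p = 0.0104, 0.0470 and 0.0104 from limma). Clones lower at 0.05 thus came from both genomes. Of 29 mitochondrial clones 17 were tested, 16 with negative differences, 0 called at 0.0001 and 7 lower at 0.05, none higher, with a median of -0.26. Beside them, 1039 of all 1683 clones tested had negative differences and 19.6% were lower at 0.05.

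Few clones for ribosome formation could be tested, and each of them was lower. Nucleolar protein NOP5, a core protein of the particles that methylate ribosomal RNA, measured 1.18, 1.75 and 2.22 in 7 fish at 36 days and 1.84, 2.63 and 3.45 in 17 fish at 7 and 11 days (log2 difference -0.55, standard error 0.12, adjusted p = 0.0017 from limma). Fibrillarin, the methylase of those particles, had a log2 difference of -0.44 (adjusted p = 0.0224), 40S ribosomal protein S19 -0.40 (adjusted p = 0.00217) and the mitochondrial 39S ribosomal protein L11 -0.36 (adjusted p = 0.00171). Only these 4 of 26 clones in the list were tested, with a median of -0.42, and all 4 were lower at 0.05, against 19.6% of all clones tested. Another 9 had values in an intermediate number of fish. All 9 were measured in a smaller share of fish at 36 days, 6 of them at an unadjusted p under 0.05 by Fisher's exact test (two-sided). Over all 1401 clones compared in this way, 906 had a smaller share at 36 days and 154 (11%) passed in that direction, or 62 of 1260 when the 3 sparsest arrays were left out. The list itself was not counted again without those arrays.

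**Figure D3:**
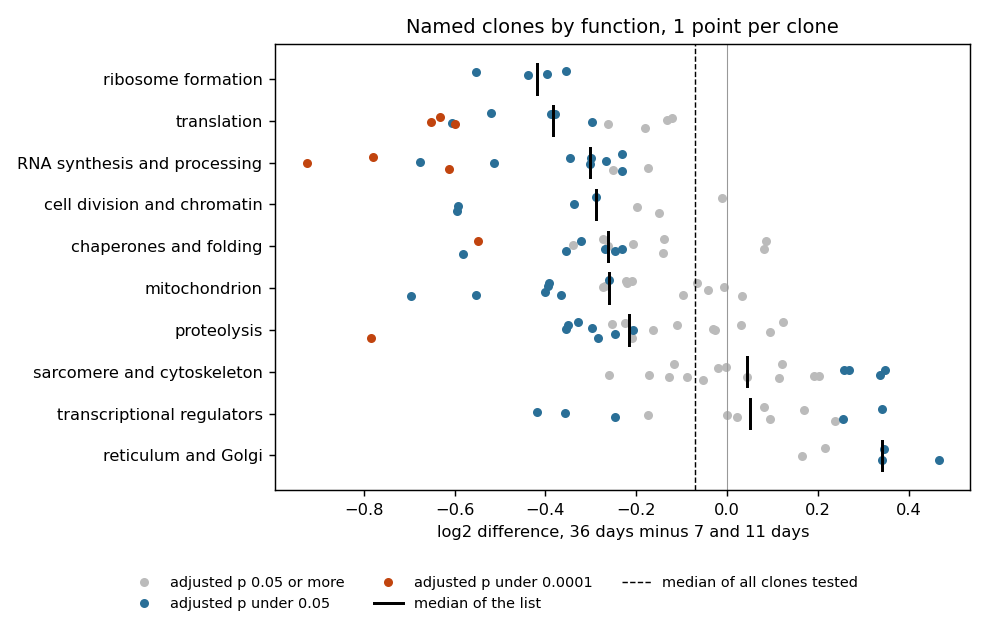
Log2 difference, 36 days minus 7 and 11 days (horizontal), for the 120 named clones tested, 1 point per clone, grouped by function and ordered by the median of the list (black line), with colour for the adjusted p from limma and a dashed line at the median of all clones tested, -0.07. The lists for ribosome formation, translation and RNA lie wholly below 0, and the list for the reticulum and Golgi apparatus wholly above it.

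Over all 120 named clones tested, 93 had negative and 27 positive differences, 52 were lower and 9 higher at an adjusted p under 0.05, and the median log2 difference was -0.23. Named or not, 1039 of 1683 clones had negative differences, and 330 (19.6%) were lower and 186 (11.1%) higher at 0.05. The 9 named clones that were higher all came from 3 lists, those for sarcomere and cytoskeleton, reticulum and Golgi, and transcriptional regulators. These rises were small, and each of them depended on the scaling. After quantile normalization the median difference of all clones moved to -0.25, the share of higher clones among those at an adjusted p under 0.05 was 8.04% (58 higher, 663 lower) in place of 36.0%, and none of the 9 stayed under 0.05. Their differences remained positive. The second centring moved the median to -0.05 instead, and all 9 stayed under 0.05. With the 3 sparsest arrays left out 5 of the 9 did.

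Dystrophin, which links the cytoskeleton of the fibre to its membrane and matrix, had the smallest p among the named rises. Its intensities were 5.91, 7.26 and 8.09 in 9 fish at 36 days, against 4.19, 5.78 and 6.69 in 17 fish at 7 and 11 days, and 8 of 9 fish at 36 days lay above every earlier fish. The log2 difference was 0.34 (standard error 0.07, adjusted p = 0.00121 from limma), or 0.17 (adjusted p = 0.168) after quantile normalization and 0.36 (adjusted p = 8.06e-05) after the second centring. Myosin-10, a non-muscle myosin heavy chain, measured 6.99, 9.74 and 11.1 in 9 fish at 36 days and 5.03, 7.46 and 9.05 in 17 fish at 7 and 11 days (log2 difference 0.35, adjusted p = 0.0055). Myosin light polypeptide 4, a light chain of atrial and embryonic muscle in mammals, measured 6.45 to 11.7 (median 8.62) at 36 days and 5.37 to 10.8 (median 7.17) at 7 and 11 days, largely overlapping (log2 difference 0.27, adjusted p = 0.0419). Subunit 3 of the Arp2/3 complex, which starts branched actin filaments, had a log2 difference of 0.26 at an adjusted p of 0.0495, with 9 of 9 fish above the earlier mean. The adjusted p of these last 2 clones was no longer under 0.05 when any of 15 and any of 16 single fish was left out.

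Most sarcomere proteins did not separate the groups. Of 27 clones for sarcomere and cytoskeleton 17 were tested, 9 with positive and 8 with negative differences, 4 higher at 0.05 and 0 lower, with a median log2 difference of 0.04 (-0.14 after quantile normalization). Among all clones tested 11.1% were higher and 19.6% lower at 0.05. Nebulin, which sets the length of thin filaments, had medians of 13 at 36 days and 14.9 at 7 and 11 days (log2 difference -0.13, adjusted p = 0.393). Both clones of skeletal troponin C, the calcium sensor of the thin filament, had negative differences (-0.17 and -0.05, adjusted p = 0.178 and 0.717). Skeletal myosin light chain 1 had 0.20 (adjusted p = 0.0913) and myosin regulatory light chain 2 had 0.04 (adjusted p = 0.777), the last turning to -0.14 (adjusted p = 0.397) after quantile normalization. Skeletal alpha actin could not be tested, having values in 4 of the fish at 36 days and in 3 of the earlier ones.

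**Figure D4:**
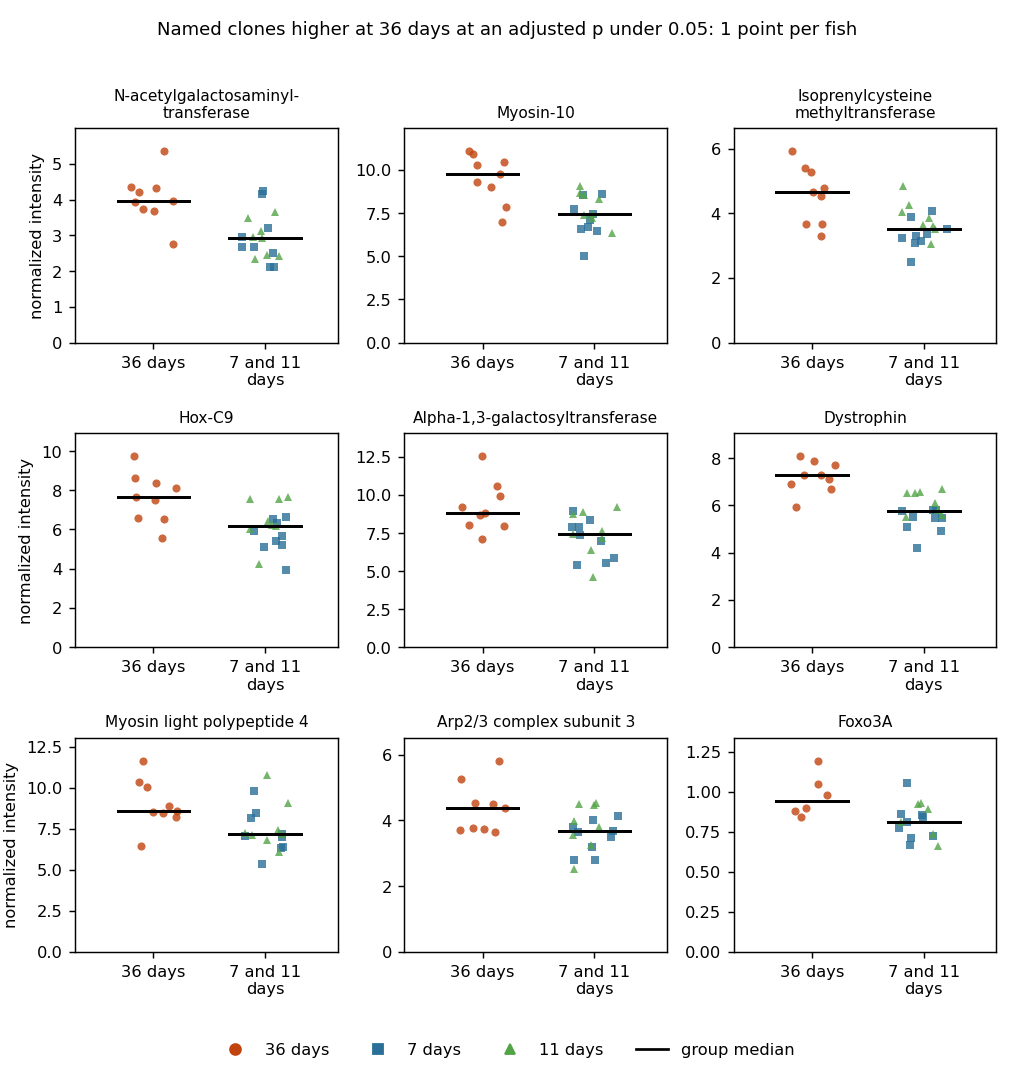
Normalized intensity (vertical, starting at 0) of the 9 named clones that were higher at 36 days at an adjusted p under 0.05, 1 point per fish with a value, at 36 days (circles, left) and at 7 days (squares) and 11 days (triangles) together (right), with group medians as lines. The groups overlap for every clone, least so for dystrophin, where 8 of 9 fish at 36 days exceed the highest earlier value of 6.69.

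Of the other named rises 3 were enzymes of the reticulum and Golgi apparatus. Beta-1,4 N-acetylgalactosaminyltransferase, which adds a sugar to glycans, had the largest rise of a named clone, with intensities of 2.76, 3.97 and 5.35 in 9 fish at 36 days and 2.10, 2.93 and 4.24 in 17 fish at 7 and 11 days. The log2 difference was 0.47 (standard error 0.11, adjusted p = 0.00326 from limma), and 8 of 9 fish lay above the earlier mean. Protein-S-isoprenylcysteine O-methyltransferase, the reticulum enzyme that methylates prenylated proteins such as Ras, measured 3.30 to 5.93 (median 4.66) at 36 days and 2.5 to 4.84 (median 3.52) at 7 and 11 days (log2 difference 0.34, adjusted p = 0.0102). N-acetyllactosaminide alpha-1,3-galactosyltransferase, also a glycan enzyme, measured 7.11 to 12.6 (median 8.85) at 36 days and 4.58 to 9.18 (median 7.45) at 7 and 11 days (log2 difference 0.34, adjusted p = 0.0186). Only 5 of the 21 clones in this list could be tested. All 5 had positive differences, 3 of them at 0.05, with a median of 0.34, and after quantile normalization 4 were positive, 0 at 0.05, with a median of 0.14. On the deposited scaling 644 of all 1683 clones tested had positive differences, and 11.1% were higher at 0.05.

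Few of the tested transcriptional regulators passed 0.05, and those that did went in both directions. Foxo3A switches on ubiquitin ligases and autophagy in mammalian muscle. It measured 0.842 to 1.20 (median 0.941) in 6 fish at 36 days and 0.661 to 1.06 (median 0.814) in 15 fish at 7 and 11 days. Its log2 difference was 0.26 at an adjusted p of 0.0471 from limma. That adjusted p was no longer under 0.05 when any of 16 single fish was left out. The homeobox protein Hox-C9, a positional regulator, measured 5.55 to 9.75 (median 7.65) in 9 fish at 36 days and 3.94 to 7.67 (median 6.18) in 17 fish at 7 and 11 days (log2 difference 0.34, adjusted p = 0.0143 from limma). ATF-4, the activator of amino acid response genes, was lower. It measured 1.35, 1.98 and 3.14 in 7 fish at 36 days and 2.02, 2.57 and 3.41 in 17 fish at 7 and 11 days, with 6 of 7 fish below the earlier mean (log2 difference -0.42, standard error 0.12, adjusted p = 0.00961). Of 32 regulators 12 were tested, 3 lower and 2 higher at 0.05, with a median of 0.05 (-0.12 after quantile normalization). After quantile normalization 4 were lower and 0 higher at 0.05. Over all clones tested 19.6% were lower and 11.1% higher at 0.05, so these counts show no direction particular to the regulators. SOX-11, a regulator of the SRY-related family, had medians of 27.1 at 36 days and 25.4 at 7 and 11 days, a log2 difference that rounds to 0 (adjusted p = 0.999).

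Most called clones carried no name, 17 of the 25 lower ones and the only higher one. Clone tcac0002.c.01 had the largest called fall, with intensities of 1.06, 1.51 and 1.85 in 7 fish at 36 days and 1.88, 2.84 and 3.72 in 16 fish at 7 and 11 days, without overlap (log2 difference -0.94, standard error 0.11, adjusted p = 2.33e-06 from limma). Clone 1RT85P10_D_H05 followed with a log2 difference of -0.82 (adjusted p = 7.64e-06), from medians of 1.68 at 36 days and 2.84 at 7 and 11 days. The higher clone, tcad0009.d.13, measured 4.57, 6.68 and 9.40 in 9 fish at 36 days and 3.04, 3.96 and 5.21 in 15 fish at 7 and 11 days, with 8 of 9 fish above all earlier ones (log2 difference 0.77, standard error 0.11, adjusted p = 1.14e-05). After quantile normalization its difference was 0.55 (adjusted p = 0.00076). Rises and falls also differed in size on the deposited scaling. Their sizes were not compared after quantile normalization, which moved the median difference of all clones from -0.07 to -0.25. At an adjusted p under 0.05 the median rise was 0.42 and the median fall -0.35 on the log2 scale, 4 clones rose by a log2 difference of 1 or more and 0 fell by as much.

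Set against each time alone, the direction was the same and fewer clones were called. Against 7 days 15 clones (0.891%) were lower and 1 (0.0594%) higher at 36 days, and at an adjusted p under 0.05 231 (13.7%) were lower and 182 (10.8%) higher. Against 11 days 1 clone (0.0594%) was lower and 0 higher, while at an adjusted p under 0.05 235 (14%) were lower and 6.06% higher (limma with 3 group means). Between 11 and 7 days 0 clones were called at 0.0001 or at 0.05, with 67 of 1683 at an unadjusted p under 0.05 and a lowest adjusted p of 0.484. Each of the 25 clones called lower had an adjusted p under 0.05 against 7 days and against 11 days on its own. They were chosen from these same fish at a stricter threshold, which favours that outcome, so it is no separate evidence. For initiation factor 5 the log2 differences were -0.63 against 7 days and -0.67 against 11 days, for fragile X-related protein 2 they were -0.99 and -0.85, and for dystrophin 0.44 and 0.22. Most named rises did not hold against 11 days alone. Dystrophin and beta-1,4 N-acetylgalactosaminyltransferase stayed under 0.05 (adjusted p = 0.0434 and 0.0193 from limma). The other named rises stayed positive, with adjusted p from 0.0713 for myosin-10 to 0.236 for Arp2/3 complex subunit 3.

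Levels in fasted fish and at 4 days place these differences in the course of refeeding. Initiation factor 5 had a median intensity of 1.55 in fasted fish, then 2.70 (4 days), 2.44 (7 days), 2.49 (11 days) and 1.55 (36 days). Fragile X-related protein 2 had 3.64, 7.21, 7.84, 7.29 and 4.76 in the same order, and U2AF 35 kDa subunit 0.926, 1.96, 1.95, 1.88 and 1.07. COP9 signalosome complex subunit 7 had medians of 2.36, 1.93, 1.68, 1.60 and 1.01, highest in fasted fish and lowest at 36 days. Not every step between these medians passed 0.05. The log2 difference of 4 days minus fasted was -0.14 (adjusted p = 0.506 from limma). That of 11 minus 7 days was -0.15 (adjusted p = 0.99973 from limma). Initiation factor 3 subunits 4 and 12 also ended below fasted fish, at log2 differences of -0.35 and -0.56 in the fit of all 43 arrays. At 7 and 11 days they stood at 0.28 and 0.04. By sign, 21 of the 25 clones called lower were below fasted fish at 36 days and 4 above. They were chosen for low values in those same fish at 36 days, which favours that sign. Over the 1561 clones of that fit the median at 36 days was itself -0.05, and their signs were not counted. Dystrophin had 4.39, 4.48, 5.48, 6.31 and 7.26, highest at 36 days.

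In the fit of all 43 arrays the 25 clones called lower had a median log2 difference from fasted fish of -0.31 at 36 days and 0.33 at 7 and 11 days, against medians of -0.05 and -0.01 over the 1561 clones of that fit. Of the 25, 7 were called below fasted fish at 36 days, where 66 of all clones (4.23%) were lower and 84 (5.38%) higher, and 7 were called above fasted fish at 7 and 11 days, where 94 (6.02%) were higher and 33 (2.11%) lower. Both differences share the fasted fish. The fish at 36, 11 and 7 days are those that chose the clones, so these levels are a description. For the translation list the medians were 0.04 at 36 days and 0.47 at 7 and 11 days (9 clones), for RNA synthesis and processing 0.12 and 0.38 (10 clones), and for proteolysis -0.41 and -0.23 (17 clones). The sarcomere and cytoskeleton list stood above fasted fish at both, at 0.68 at 36 days and 0.44 at 7 and 11 days (16 clones), as did the reticulum and Golgi list, at 0.60 and 0.28 (4 clones).

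**Figure D5:**
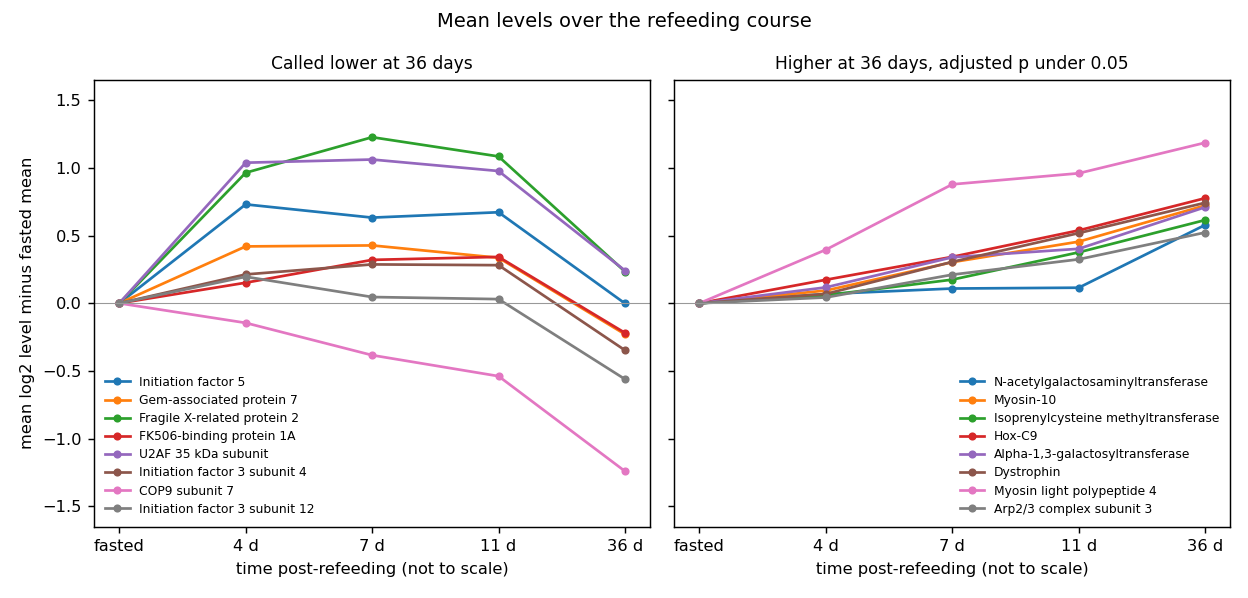
Mean log2 intensity minus the mean of fasted fish (vertical) for fasted fish and for each of the 4 times of refeeding, early to late (horizontal, not to scale), for the named clones called lower at 36 days (left) and for the named clones higher at an adjusted p under 0.05 with values in at least 5 fish of every group (right). On the left 7 of the 8 lines lie above 0 at 4 to 11 days and drop at 36 days. Initiation factor 3 subunit 12 is close to 0 at 7 and 11 days, and COP9 signalosome complex subunit 7 is below 0 from 4 days on. On the right all 8 lines end at their highest point.

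Whether a clone had a value at all also differed more often in one direction. Among 1401 clones measured in an intermediate number of fish, 0 differed at an adjusted p under 0.0001 by Fisher's exact test, 4 (0.286%) were present in fewer fish at 36 days at an adjusted p under 0.05, and at an unadjusted p under 0.05 154 (11%) were present in fewer fish and 44 (3.14%) in more. Initiation factor 5, described above, was the only named clone among the 4. The others were 1RT31H12_D_D06 and 1RT86K17_A_F09, each with a value in 2 of 9 fish at 36 days and in all 17 fish at 7 and 11 days, and tcay0024.i.13, with a value in 0 of 9 fish at 36 days and in 14 of 17 earlier fish. Of the 75 named clones compared, 31 were present in fewer fish at an unadjusted p under 0.05 and 0 in more. By list these were 7 of 15 for RNA synthesis and processing, 6 of 8 for translation, 6 of 9 for ribosome formation, 4 of 5 chaperones, 3 of 8 transcriptional regulators, 2 of 10 for proteolysis, 2 of 6 for the mitochondrion, 1 of 6 for cell division and chromatin, and 0 of 4 each for the sarcomere and for the reticulum and Golgi. The arrays with the fewest values were mostly at 36 days, and the counts of named clones and of lists were not repeated without them. Without these 3 arrays 0 clones passed an adjusted p under 0.05, 62 of 1260 were present in fewer fish and 39 in more at an unadjusted p under 0.05, and the clone of initiation factor 5 had a value in 1 of 7 fish at 36 days and 15 of 16 fish at 7 and 11 days (p = 0.000461, two-sided Fisher's exact test).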

How the data were processed

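Muscle RNA of single fish was hybridised as 33P-labelled cDNA to nylon arrays, 1 fish per array. The authors excluded spots with a weak signal of the vector oligonucleotide, divided each signal by that oligonucleotide signal and by the array's median, and deposited the result as linear intensity. Values of 0 (6105 on the 26 arrays used) and empty cells (173344) were taken as missing, and 193 control rows were left out of the 9216 rows. Clones measured in 5 or more fish at each of 36, 11 and 7 days entered the fit, made on log2 values with limma 3.58.1 under R 4.3.3, of the mean of 36 days against a common mean of 7 and 11 days. Moderated p-values were adjusted with the Benjamini-Hochberg procedure over all 1683 clones. A call needed an adjusted p under 0.0001, and 0.05 served as a looser threshold. The fit was tested on simulated data. The presence of a value was compared by Fisher's exact test (two-sided) for clones measured in at least 5 fish and missing in at least 5.

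Genes were named from the clone labels printed beside the study's heat maps, as the table holds clone names alone, and 290 of 291 labels were found in it. The named clones, their grouping by function and the tests were chosen with earlier results of these data known. Named clones were described if called, if among the 15 largest falls or rises at an adjusted p under 0.05, or if they had the smallest p of their list, and other members were added after their values had been seen. At most 2 clones without a name were given per direction by that rule. Levels beside fasted fish came from a fit of all 43 arrays with 5 group means, over 1561 clones. The alternatives were the looser threshold, other means and groups, quantile normalization, a second centring of each array on clones measured in all 26 fish, square roots, other filters, an intensity trend with robust variance, array weights, a covariate for how many values an array had, the replicate number as a block, omitting the 3 sparsest arrays, and omitting each fish. Values of function lists and signs of named clones under 6 of these settings, and the presence test at looser thresholds without those arrays, were chosen after seeing the data. Plots were drawn with matplotlib 3.10.9, pandas 2.3.3 and numpy 2.4.6. The number of arrays limits the precision.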

Additional observations from a re-analysis of the deposited data

Results flagged for a closer look

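Among the described clones and the counts of values per array, a fish was set apart where its distance to the next fish was a large share of its group's range (Dixon's test, log2 scale). This was done for 90 groups and set 6 fish apart, and chance sets about 1 in 20 groups apart. At 36 days, fish 10 had the highest intensity of initiation factor 5 (2.07, nearest fish 1.60) and of cyclin D2 (8.22, nearest fish 6.59), and fish 3 the lowest of fragile X-related protein 2 (2.26, nearest fish 3.46). At 11 days fish 3 had the lowest Hox-C9 (4.25, nearest fish 6.01). At 7 days fish 6 had the highest COP9 signalosome complex subunit 7 (2.15, nearest fish 1.80) and fish 10 the lowest dystrophin (4.19, nearest fish 4.92).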

How the results depend on the processing

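No clone chosen by the naming rule changed direction under the settings tried. Over all 120 named clones tested, signs changed for 13 after quantile normalization, 4 after the second centring, 4 with array weights, 6 without the 3 sparsest arrays, 7 with the covariate and 2 with the block, 0 of them at an adjusted p under 0.05. Among those described in the text were HSP 90-alpha, myosin regulatory light chain 2, SOX-11, ubiquitin, the ATP synthase gamma chain and 1 clone of troponin C. Counts called lower and higher at an adjusted p under 0.0001, 25 and 1 in the comparison as reported, were 330 and 186 at an adjusted p under 0.05, 41 and 5 with all 43 arrays, 15 and 1 against 7 days alone, 1 and 0 against 11 days alone, 32 and 0 after quantile normalization, 19 and 6 after the second centring, 16 and 1 on square roots, 10 and 0 over the 798 clones measured in all 26 fish, 45 and 12 with array weights, 11 and 0 with the 3 sparsest arrays left out, and 12 and 0 with a covariate for how many values an array had. Leaving out each fish gave 13 to 30 lower and 1 to 12 higher, with 13 lower without fish 5 of 36 days. Clones called higher were 12 without fish 4 of 7 days, 8 without fish 6 of 36 days, 4 without fish 2 of 7 days or fish 3 of 11 days, 3 without fish 2 of 11 days, and 2 without fish 5 of 11 days or fish 5 of 36 days. The presence test called 4 clones at 0.05 and 0 in the other settings. Without the dimmest 25% of clones, 17 of 1262 were called lower and 1 higher. With the replicate number as a block 16 clones were called lower and 9 higher. Nothing in the labels pairs the fish, and deviations of fish that share a number correlated at -0.245 to 0.416, over 0.1 in 4 of 9, 3 of 8 and 3 of 8 pairs. Over the described clones, 352 values under the other settings stayed on the same side of their threshold and 64 no longer passed it, most often against 11 days alone (17) and after quantile normalization (11). The cause was not tested. Empty cells limit what can be compared: 4826 clones had no value on any of the 26 arrays. The exclusion that the study describes used the vector oligonucleotide signal, and whether dim clones were lost more often was not tested. The sparsest of the 26 arrays, fish 2 of 36 days with 1441 values, had the highest median of the values left (3.63). The fullest, fish 5 of 7 days with 2616 values, had a median of 2.15. Bright clones could be empty too, as skeletal alpha actin had values in only 4 fish at 36 days and 3 earlier fish.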
